A study of Mus musculus with 6 samples.

Results

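Conjugating enzymes of the UGT, GST and SULT families were followed at the mRNA level in regrowing mouse liver. They were taken as the rows of the deposited count table whose mouse symbol names a numbered UDP-glucuronosyltransferase (Ugt), a cytosolic or kappa glutathione S-transferase (Gsta, Gstk, Gstm, Gsto, Gstp, Gstt, Gstz), a microsomal glutathione S-transferase (Mgst) or a cytosolic sulphotransferase (Sult). These were 46 of the 12027 rows: 17 UGT, 22 GST and 7 SULT genes. The rule reads gene symbols alone, though it was set with earlier results of these data known.

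The livers came from male mice of strain C57BL/6, 8 weeks old, that had undergone partial hepatectomy (PHX), the removal of part of the liver. OGT attaches the single sugar O-GlcNAc to proteins inside the cell and OGA takes it off. The 6 libraries were OGT-KO (genotype OGT-/y) and OGT control (OGTfl/y) at 28 days, and OGA-KO (OGA-/-) with its control (OGAfl/fl) at both 14 and 28 days. The deletions are described as specific to hepatocytes; the Cre driver, and whether the controls received it, are not given in the sources used here. Each library was whole liver from 3 mice whose RNA was pooled, so every group has 1 library and no spread between mice. No OGT libraries of 14 days were used here.

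Drug and hormone metabolism in the liver ends with conjugation, in which a hydrophilic group is attached so that the molecule can be carried into bile or blood. UGT enzymes sit in the endoplasmic reticulum and use UDP-sugars, mostly UDP-glucuronate. GST enzymes use the tripeptide glutathione against electrophiles, and SULT enzymes use the activated sulphate PAPS. Hepatocytes are the main site of all these reactions in liver, and several members are known to differ between male and female mice.

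Levels below are CPM, counts scaled to the size of their library, with the size corrected by TMM for differences in library composition. A log2 ratio is KO over control with a prior count of 2, and its bracketed range is the 95% exact counting interval, which covers counting error only and not mice. The size rule asks for at least a 2-fold difference with at least 1 CPM in the higher library. The verbs rose and fell are kept for genes past edgeR's quasi-likelihood test with Benjamini-Hochberg adjusted p under 0.05 over 12026 genes. That test fits all 6 libraries together with 1 residual degree of freedom, which comes from the OGA libraries; the lone OGT libraries are assumed to vary like them.

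Library totals lay between 20433100 and 29327722 counts, so that a count of 0 allows up to 0.107 to 0.13 CPM. The deleted genes were read first. Ogt had 43.2 CPM in OGT-KO livers against 58.0 CPM in OGT control livers, a log2 ratio of -0.43 (-0.54 to -0.31). Oga, listed under its older symbol Mgea5, had 10.4 and 12.8 CPM in OGA-KO livers at 14 and 28 days, against 62.2 and 67.2 CPM in their controls. In the OGT pair, where Oga is not deleted, it had 36.6 CPM in OGT-KO livers against 60.7 CPM in OGT control livers. Its log2 ratio there, -0.73 (-0.84 to -0.61), was lower than that of Ogt. Reads from exons outside the deleted part still count toward both genes, and the deleted exons are not given in the sources used here. In addition, OGT-KO livers held 2430 summed CPM of 10 stellate cell and fibroblast markers against 308 in OGT control livers, 1290 against 368 of 10 Kupffer cell and macrophage markers, and 581 against 111 of 9 cholangiocyte and progenitor markers (Cftr and Prom1 had no row). The 10 hepatocyte markers summed to 58600 CPM in OGT-KO livers against 85100 CPM in OGT control livers. The OGA-KO library of 28 days stood apart in genes of the pancreas: 10 markers of its enzyme-secreting acinar cells summed to 207 CPM there against 27.3 CPM in its control, to 27.1 against 29.5 CPM in the OGA pair of 14 days, and to 5.19 against 11 CPM in the OGT pair. Nearly all of the sum in the other libraries was 1 gene, Cela1. It had 26.8 CPM in the OGA control of 28 days, and 26.5 against 28.9 CPM in the OGA pair of 14 days. In the OGT pair it had 4.94 against 10.7 CPM, and in the OGA-KO library of 28 days 45.5 CPM. Ctrb1, Pnlip and Cpa1, which encode digestive enzymes, had 904, 727 and 373 counts in the OGA-KO library of 28 days and 0 in the other 5.

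In OGT-KO livers the conjugating enzymes were broadly lower. By edgeR, 35 of the 46 members fell and 6 rose, where 26.6% of all genes fell and 26.1% rose. By the size rule, 27 of the 45 members with at least 1 CPM were lower and 4 were higher, where 11.7% of all genes were lower and 16.4% were higher. The median log2 ratio was -1.73 over those 45 members and about 0 (-0.001) over all genes. The 6 that rose were Ugt1a7c, Gsta1, Gstm5, Gsto1, Mgst3 and Sult1b1. The 5 not called were Ugt1a10, which had 0 counts in both OGT libraries, and Gsta4, Gstp2, Gstt2 and Sult1a1. A fit without a term for the line (OGT or OGA mice) called 21 members fallen and only Ugt1a7c and Mgst3 risen. Of all 12026 genes it called 1419 fallen and 1616 risen. The calls it lost included Ugt1a6a, Ugt1a9, Gsta1, Gsta2, Gstp3, Gsto1, Sult2a7, Sult5a1 and others named below. DESeq2 called 31 members fallen and 4 risen, where it called 1684 of 12027 genes fallen and 1207 risen. It did not call Ugt1a6a, Ugt1a7c, Gsta2, Gstm4, Gstm5, Gstp3 or Sult1b1. Scaled to library totals, edgeR did not call Gsta2, Gstm3, Gstm4 or Gstp3 (adjusted p = 0.105, 0.0828, 0.343 and 0.322).

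The loss was uneven across the enzyme classes. UGT transcripts together made up 642 CPM in OGT-KO livers against 3850 CPM in OGT control livers, a 6.0-fold lower sum. The GST genes summed to 3800 CPM in OGT-KO livers against 9420 CPM in OGT control livers, 2.48-fold lower. SULT transcripts came to 332 CPM in OGT-KO livers against 919 CPM in OGT control livers, 2.77-fold lower. The SULT sum rested on 1 gene: without Sult2a8 its log2 ratio was -0.53 in place of -1.47, while the GST and UGT sums without their most abundant member had -1.19 in place of -1.31 and -2.56 in place of -2.59. As a share of all counts, UGT genes took 0.0878% of the OGT-KO library (0.0865% to 0.0891%, exact Clopper-Pearson) and 0.407% of the OGT control library (0.405% to 0.41%). In the 4 OGA libraries they took 0.292% to 0.338%.

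**Figure D1:**
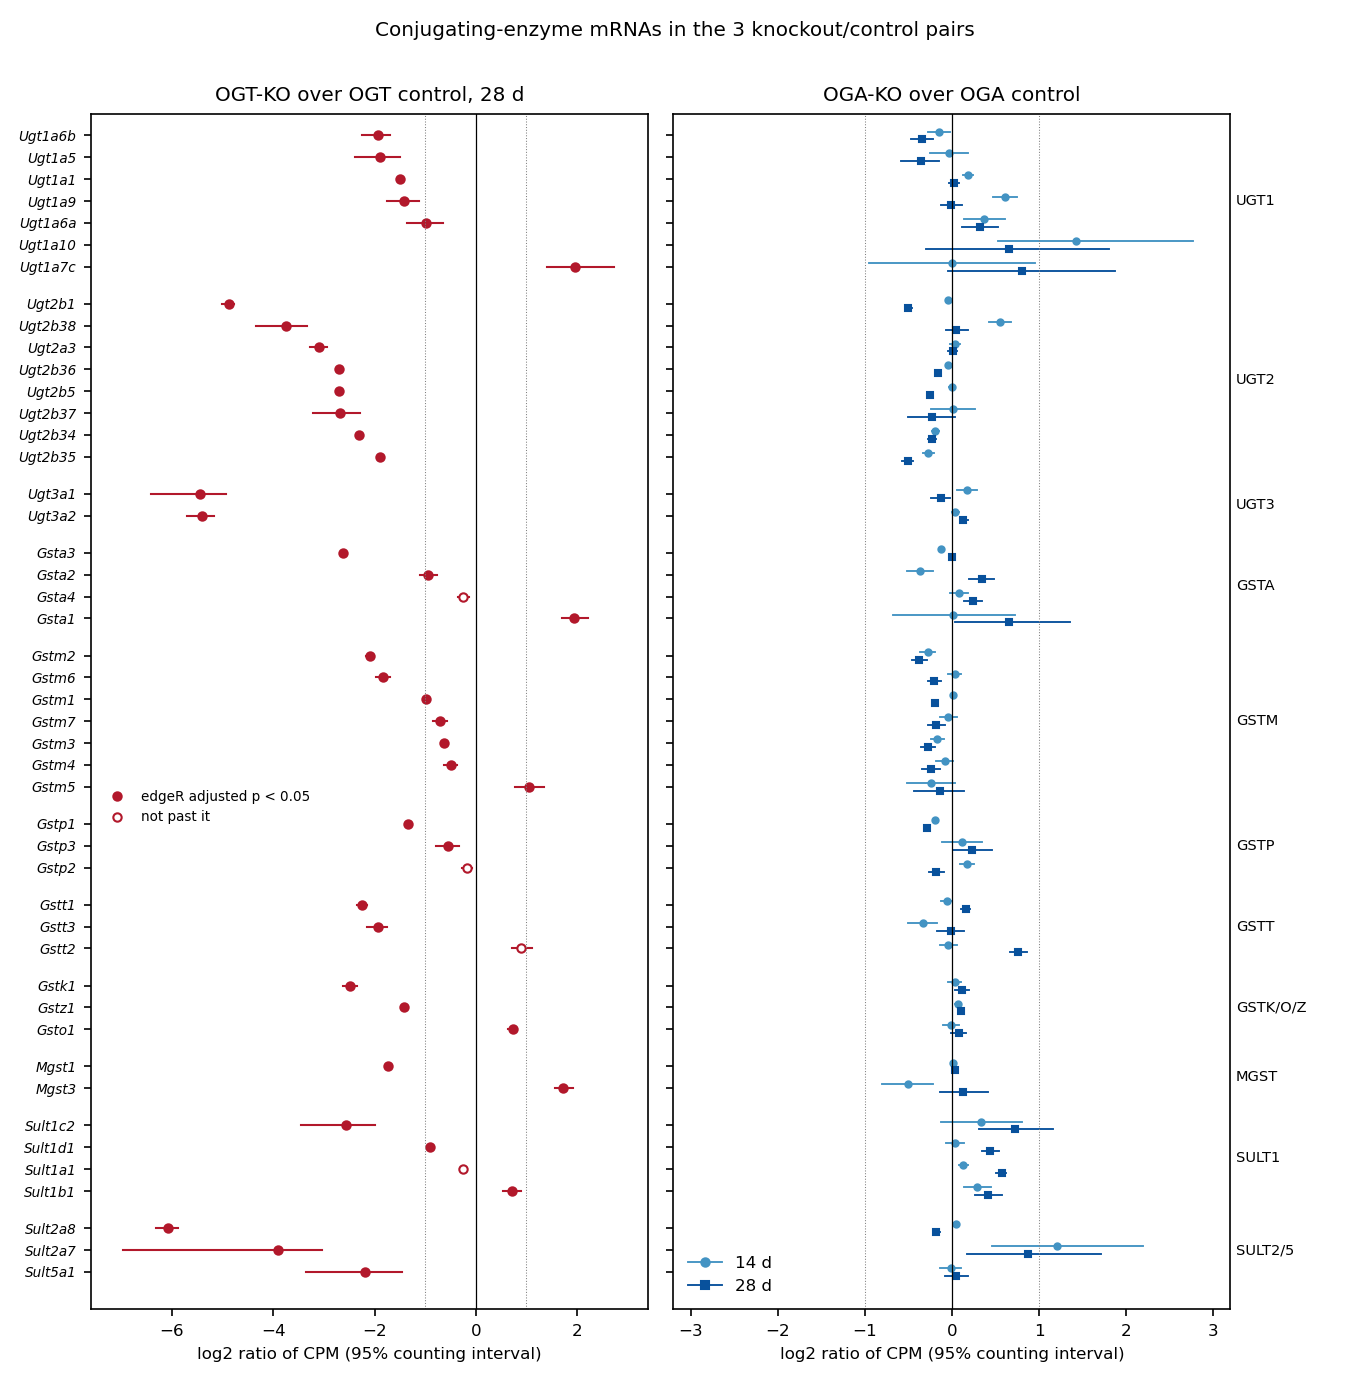
Log2 ratio of CPM (horizontal axis) for each of the 46 members, ordered by family, in OGT-KO over OGT control at 28 days (left; filled points are past edgeR's threshold, open ones are not) and in OGA-KO over OGA control at 14 days (light circles) and 28 days (dark squares) (right). Lines are 95% counting intervals and dotted lines mark a 2-fold difference; Ugt1a10 has no point on the left because both OGT libraries held 0 counts. Most points on the left lie below 0, down to -6.08 for Sult2a8, while the ratios on the right stay within -0.51 and 1.42.

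**Figure D2:**
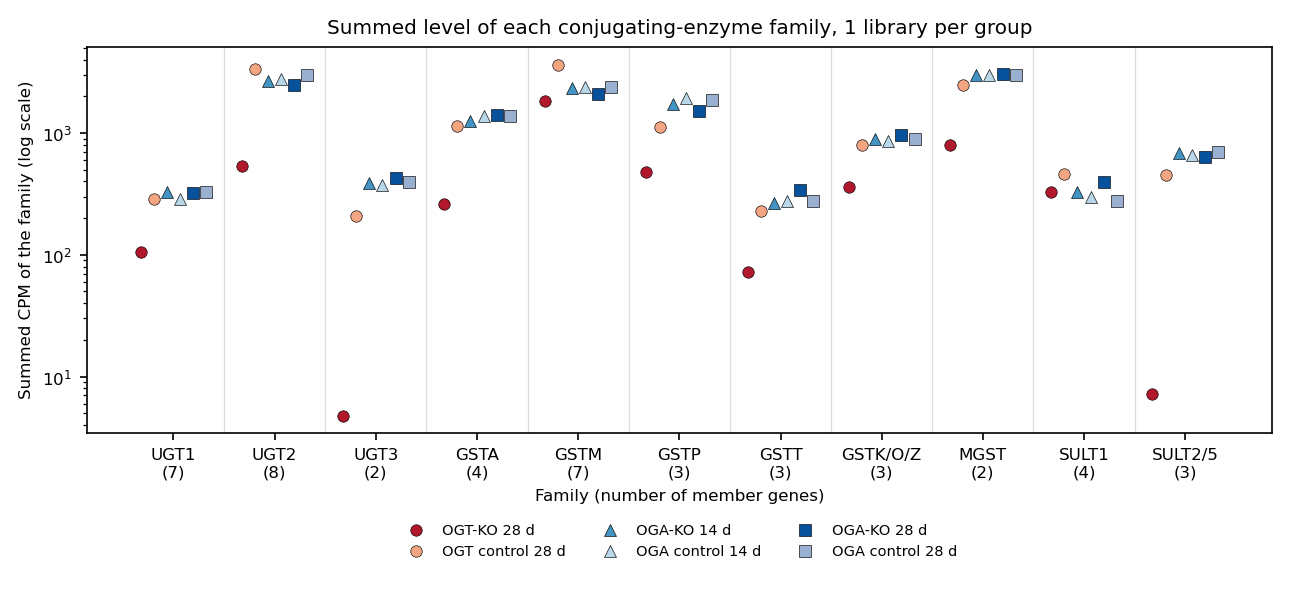
Summed CPM of each of the 11 families (log scale) in each of the 6 libraries, 1 point per library. OGT-KO is the lowest library in 10 of the 11 families; in SULT1 it lies among the others, with 325 CPM.

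The largest differences belonged to SULT2 and UGT3. Sult2a8, which encodes a liver sulphotransferase that acts on bile acids in mouse (ENSMUSG00000030378), had 6.55 CPM in OGT-KO livers against 449 CPM in OGT control livers. In the OGA series it had 641 and 590 CPM in OGA-KO livers at 14 and 28 days against 620 and 666 CPM in OGA control livers, so OGT-KO stood alone at the low end. Its log2 ratio was -6.08 (-6.32 to -5.89), 67.7-fold lower, and it fell by edgeR (adjusted p = 8.3e-05). Counts of Sult2a8 were 1.97% of all SULT counts in OGT-KO livers and 48.8% in OGT control livers, against 57.4% to 68.0% in the 4 OGA libraries.

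Its neighbour Sult2a7 had 3 counts in OGT-KO livers and 62 in OGT control livers, a log2 ratio of -3.90 (-6.96 to -3.03), and fell. Sult5a1 fell as well, but its control level was itself low: 0.466 CPM in OGT-KO livers against 2.38 CPM in OGT control livers, while the 4 OGA libraries held 37.7 to 40.7 CPM. The low level of Sult5a1 in the OGT pair was thus shared by the OGT control.

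Both UGT3 genes were far lower in OGT-KO livers. In human, UGT3A1 uses UDP-N-acetylglucosamine, the same sugar donor that OGT uses, and UGT3A2 uses UDP-glucose and UDP-xylose. Ugt3a2 (ENSMUSG00000049152) had 4.15 CPM in OGT-KO livers against 180 CPM in OGT control livers, and 334 and 373 CPM in OGA-KO livers at 14 and 28 days against 325 and 340 CPM in OGA control livers. Ugt3a1 (ENSMUSG00000072664) had 0.609 CPM in OGT-KO livers against 29.9 CPM in OGT control livers, and 53.2 and 51.4 CPM in OGA-KO livers against 47.2 and 56.1 CPM in OGA control livers. OGT-KO was the lowest library for both genes by a wide margin. The log2 ratios were -5.41 (-5.71 to -5.17) for Ugt3a2 and -5.45 (-6.41 to -4.93) for Ugt3a1, and both fell by edgeR.

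UGT2 genes, whose products conjugate steroids, bile acids and many drugs, fell in all 8 cases, and all 8 passed the size rule. Ugt2b1 (ENSMUSG00000035836) had 21.2 CPM in OGT-KO livers against 625 CPM in OGT control livers, and between 556 and 785 CPM in the 4 OGA libraries. It was the member of this family with the lowest log2 ratio, -4.88 (-5.01 to -4.77). Ugt2b5 had 94.2 CPM in OGT-KO livers against 614 CPM in OGT control livers, and Ugt2b36 had 102 CPM against 666 CPM. These differences were nearly equal, at 6.51-fold and 6.49-fold lower.

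Ugt2b34 and Ugt2b35 lost the least within UGT2. Ugt2b34 had 167 CPM in OGT-KO livers against 825 CPM in OGT control livers (log2 ratio -2.30), and 323 to 393 CPM in the OGA libraries. Ugt2b35 had 131 CPM in OGT-KO livers against 487 CPM in OGT control livers (-1.90), and 133 to 201 CPM in the OGA libraries. For both, the OGT control was the highest of the 6 libraries, and for Ugt2b35 the OGT-KO level was close to that of OGA-KO at 28 days. Neither fell in an edgeR fit without the term for the line.

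Per kilobase of annotated exon, Ugt2b5, Ugt2b36 and Ugt2b1 led the UGT2 genes of the OGT control library with 330, 323 and 243 CPM per kilobase. In OGT-KO livers they had 50.7, 49.5 and 8.24 CPM per kilobase, so that Ugt2b1 dropped out of the leading group. Its share of all UGT counts was 3.3% in OGT-KO livers and 16.2% in OGT control livers. The smaller members fell too: Ugt2a3 to 12.7 CPM in OGT-KO livers against 109 CPM in OGT control livers, Ugt2b38 to 1.33 against 18.6 CPM, and Ugt2b37 to 1.68 against 11.2 CPM. The OGA libraries held 211 to 240 CPM of Ugt2a3 and 32.1 to 47.2 CPM of Ugt2b38, above both OGT libraries. Ugt2b5, Ugt2b38 and Ugt2b37 share 41.7%, 37.4% and 18.3% of their 50-base transcript windows with other genes, mostly with each other, so reads may have been split between them.

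The UGT1 genes are made from 1 locus in which alternative first exons join a common set of later exons. Ugt1a1, the enzyme that conjugates bilirubin (ENSMUSG00000089960), had 85.7 CPM in OGT-KO livers against 241 CPM in OGT control livers, and 197 to 224 CPM in the 4 OGA libraries. It fell, with a log2 ratio of -1.49 (-1.56 to -1.42). Ugt1a6b, whose product acts on simple phenols, had 5.12 CPM in OGT-KO livers against 19.9 CPM in OGT control livers and fell. The OGA libraries held 34.7 to 44.1 CPM of it. Ugt1a5, Ugt1a6a and Ugt1a9 also fell. Ugt1a7c went the other way, with 4.44 CPM in OGT-KO livers against 1.08 CPM in OGT control livers (124 and 25 counts) and 0.611 to 1.13 CPM in the OGA libraries. Since 50.3% to 60.6% of the exonic bases of these genes lie in exons shared with other genes, the values of single UGT1 members depend on how shared reads were assigned; summed, UGT1 had 106 CPM in OGT-KO livers against 289 CPM in OGT control livers.

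Start-site sequences were searched for short motifs, those of HNF4, NRF2, AHR, STAT5 and C/EBP. The C/EBP core is described first because it alone had a higher share in members' windows than in all windows. That difference in share rests on few windows and was not tested. RefSeq promoter windows of build GRCm38.p6, cut here to the 250 bases before the start, were found for 41 of the 46 members. The C/EBP core TTGCNNAA, on either strand, was present in 8 of the 41 genes: Ugt2b5, Ugt2b36, Gsta3, Gstm2, Gstp3, Gstt1, Mgst1 and Sult2a8. That was 8 of the members' 51 promoter windows (15.7%), against 9.56% of the 32851 windows of all genes. C/EBP factors are known as regulators of many hepatocyte genes. The stretches below belong to the member with the lowest ratio, to the 2 UGT2 genes with near-equal ratios and to Gstt1; they are read 5′ to 3′ on the gene's strand and show the match in capitals with 15 bases on each side. They lie, in order, on the minus strand at chr7:14446782-14446819, chr5:87140392-87140429, chr5:87092610-87092647 and chr10:75797748-75797785.
Sult2a8: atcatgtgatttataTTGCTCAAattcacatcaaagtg
Ugt2b5: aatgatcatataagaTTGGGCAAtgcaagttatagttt
Ugt2b36: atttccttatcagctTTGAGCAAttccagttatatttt
Gstt1: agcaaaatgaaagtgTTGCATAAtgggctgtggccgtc

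Counted from the start, the match lay at -74 to -67 in Ugt2b5 and at -77 to -70 in Ugt2b36, and farther out, at -217 to -210, in Sult2a8. The genes holding it had log2 ratios between -6.08 (Sult2a8) and -0.55 (Gstp3) in the OGT pair. All 8 fell, where 76.1% of all members did, and a link between the match and the fall was not tested. Ugt2b1 and Ugt2a3, which also fell, had no match in this window. A match is a stretch of letters and no measure of binding. The HNF4 core CAAAGTCCA was in none of the members' 51 windows and in 0.384% of all windows. A core this rare would seldom be met in so few windows, so its absence cannot show a lack of HNF4 sites. The AHR core GCGTG was in 19.6% of the members' windows and in 28.2% of all windows. The STAT5 core TTCNNNGAA was in 5.88% of the members' windows (Gsta1, Gstm6 and Ugt1a6a) and in 7.02% of all windows.

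**Figure D3:**
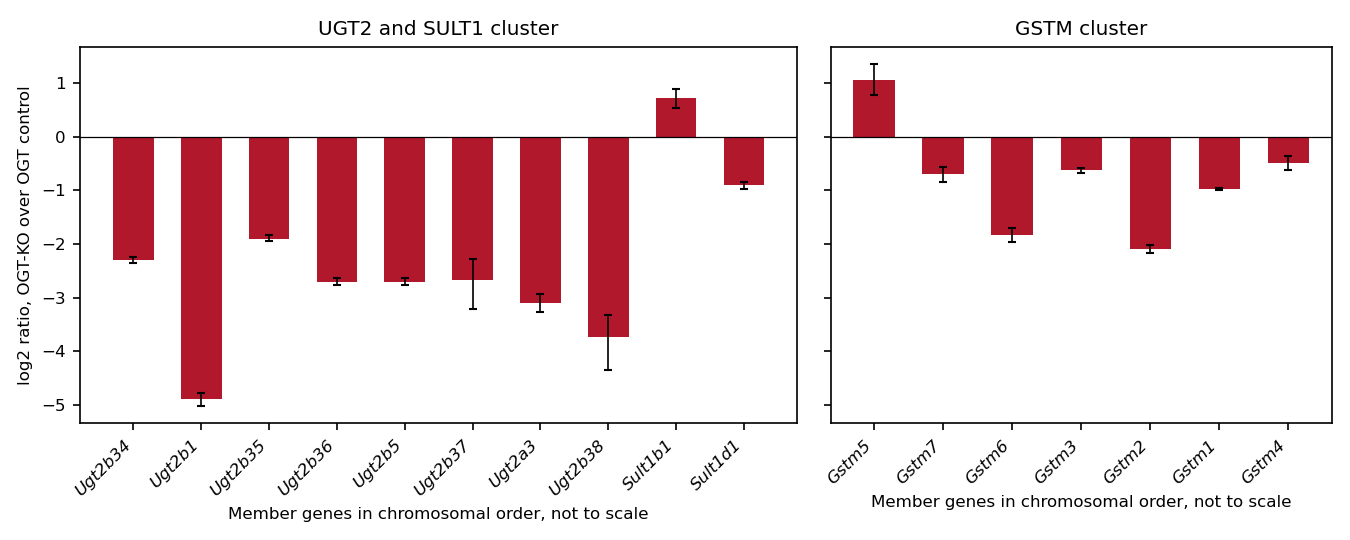
Log2 ratio of OGT-KO over OGT control (bars; error bars are 95% counting intervals) for the members of the UGT2 cluster with its 2 neighbouring SULT1 genes (left) and of the GSTM cluster (right), in chromosomal order and not to scale. All bars are past edgeR's threshold. Sult1b1 (0.71) and Gstm5 (1.05) point up within clusters that otherwise point down.

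Sult1b1 and Sult1d1 follow the UGT2 genes directly in the gene order of RefSeq GRCm38.p6, yet their differences were small or opposite. Sult1b1, which sulphates thyroid hormones, had 28.5 CPM in OGT-KO livers against 17.4 CPM in OGT control livers and rose, with a log2 ratio of 0.71 (0.54 to 0.89). Sult1d1, which acts on catecholamines in mouse, had 130 CPM in OGT-KO livers against 246 CPM in OGT control livers and fell, but the OGA libraries held only 56.0 to 85.9 CPM. Neither call was made without the term for the line.

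SULT1 was the least affected SULT family. Sult1a1, the main phenol sulphotransferase of liver (ENSMUSG00000030711), had 165 CPM in OGT-KO livers against 198 CPM in OGT control livers, a log2 ratio of -0.26 (-0.32 to -0.20) that was not called (edgeR adjusted p = 0.238). Sult1c2 had 0.716 CPM in OGT-KO livers against 4.64 CPM in OGT control livers and fell. As a share of SULT counts, Sult1a1 made up 49.7% in OGT-KO livers against 21.5% in OGT control livers, and Sult1d1 39.3% against 26.7%.

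Among the GST genes, the most abundant ones fell by intermediate amounts. Per kilobase, Gstm1, Mgst1 and Gstp1 led the OGT control library with 1910, 1220 and 672 CPM per kilobase, and they also led the OGT-KO library, with 971, 369 and 265 CPM per kilobase. Mgst1, the microsomal transferase that also reduces lipid peroxides (ENSMUSG00000008540), had 743 CPM in OGT-KO livers against 2460 CPM in OGT control livers, and 2980 to 3060 CPM in the OGA libraries. Gstp1, which is abundant in male mouse liver, had 410 CPM in OGT-KO livers against 1040 CPM in OGT control livers, and 1420 to 1830 CPM in the OGA libraries. For both genes OGT-KO was the lowest library and OGT control the next; their log2 ratios were -1.73 and -1.34, and both fell.

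Gstm1 (ENSMUSG00000058135) had 1430 CPM in OGT-KO livers against 2810 CPM in OGT control livers, a log2 ratio of -0.98 (-1.0 to -0.96), and fell. The 4 OGA libraries held 1670 to 1930 CPM of it, so only the OGT control stood high. Gstm1 made up 37.5% of all GST counts in OGT-KO livers and 29.8% in OGT control livers, while Mgst1 made up 19.5% and 26.1%. In the 4 OGA libraries Gstm1 made up 17.8% to 20.3% and Mgst1 30.4% to 32.6%.

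GSTM genes, which lie side by side, moved by different amounts. Gstm2 had 63.5 CPM in OGT-KO livers against 270 CPM in OGT control livers and Gstm6 had 21.5 against 76.5 CPM, 4.25-fold and 3.56-fold lower. Gstm3, Gstm4 and Gstm7 fell by less, with log2 ratios of -0.63, -0.50 and -0.70. Gstm5, at one end of the cluster, had 12.9 CPM in OGT-KO livers against 6.15 CPM in OGT control livers and rose (log2 ratio 1.05, 0.78 to 1.35). Without the term for the line the estimate for Gstm3 turned to 0.11 on the log2 scale, and 6 of these 7 calls were lost, Gstm6 being the exception; the OGT and OGA controls differ in this family, as described below.

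In the alpha family, Gsta3 (ENSMUSG00000025934), the transferase that protects mouse liver from aflatoxin epoxide, had 171 CPM in OGT-KO livers against 1050 CPM in OGT control livers, and 1170 to 1300 CPM in the OGA libraries. OGT-KO alone was low, with a log2 ratio of -2.62 (-2.67 to -2.58), and Gsta3 fell. Gsta1 rose: it had 25.9 CPM in OGT-KO livers against 6.67 CPM in OGT control livers, and 1.30 to 2.10 CPM in the OGA libraries, so both OGT libraries lay above all OGA libraries. Gsta1 shares 90.5% of its transcript windows with another gene, and its count is uncertain for that reason. Gsta2 fell by 0.94 on the log2 scale, and Gsta4, which acts on aldehydes from lipid peroxidation, had 50.2 CPM in OGT-KO livers against 59.5 CPM in OGT control livers and was not called (edgeR adjusted p = 0.105).

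The antioxidant response element core TGACNNNGC, the sequence known for NRF2 in GST promoters, was found on either strand in the windows of 4 members: Gsta3, Gstm5, Gstm7 and Mgst1. That was 7.84% of the members' windows and 10.2% of those of all genes. The stretches of Gsta3 (plus strand, chr1:21240449-21240487) and Gstm5 (plus strand, chr3:107895797-107895835) are shown because one of these genes fell and the other rose.
Gsta3: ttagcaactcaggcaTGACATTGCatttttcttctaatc
Gstm5: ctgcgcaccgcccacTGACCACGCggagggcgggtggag

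Of the remaining GST genes, those of the mitochondrial, zeta and theta classes mostly fell. Gstk1, found in mitochondria and peroxisomes, had 16.7 CPM in OGT-KO livers against 93.1 CPM in OGT control livers and 89.2 to 97.1 CPM in the OGA libraries. Gstz1, the maleylacetoacetate isomerase of tyrosine breakdown, had 242 CPM in OGT-KO livers against 641 CPM in OGT control livers and 682 to 775 CPM in the OGA libraries. Gstt1 had 36.8 CPM in OGT-KO livers against 175 CPM in OGT control livers, and Gstt3 10.7 against 41.3 CPM. All of these fell, with OGT-KO the lowest of the 6 libraries in each.

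Mgst3, Gsto1 and Gstt2 did not follow. Mgst3, a membrane transferase and peroxidase, had 47.0 CPM in OGT-KO livers against 14.1 CPM in OGT control livers, and 6.62 to 9.43 CPM in the OGA libraries; it rose, with a log2 ratio of 1.73 (1.56 to 1.92). Gsto1, a thioltransferase that also reduces dehydroascorbate, had 103 CPM in OGT-KO livers against 61.8 CPM in OGT control livers and 84.3 to 91.7 CPM in the OGA libraries, and rose. Gstt2 had 24.4 CPM in OGT-KO livers against 13 CPM in OGT control livers and was not called (edgeR adjusted p = 0.0529), while the OGA libraries held 53.6 to 91.1 CPM. It was called higher by DESeq2 (log2 ratio 0.90, adjusted p = 0.0352) and by edgeR scaled to library totals (1.27, adjusted p = 0.0165). Gstp2 (56.7 against 64.2 CPM) was not called either, and Gstp3 fell by 0.55 on the log2 scale.

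Whole liver cannot tell fewer hepatocytes from less RNA per hepatocyte. The 10 hepatocyte markers had a median log2 ratio of -0.61 in the OGT pair, and the single values ran between -1.47 (Ttr) and 0.16 (Tat). Of these markers 8 fell and none rose, where 26.6% of all genes fell and 26.1% rose. Of the 45 members, 24 lay below the lowest of these markers. All 10 stellate cell and fibroblast markers, all 10 Kupffer cell and macrophage markers and 8 of 9 cholangiocyte and progenitor markers rose, Krt7 to 10.7 CPM in OGT-KO livers against 0.996 CPM in OGT control livers and Epcam to 22.7 against 2.51 CPM. The part of these shifts in the members that rose or fell was not tested. Scaling by library totals in place of TMM moves every log2 ratio of the OGT pair up by 0.371; then 35 members are lower and 10 higher, in place of 38 and 7, with Gsta4, Gstp2 and Sult1a1 changing sign. Among all genes that scaling gives 2832 higher and 832 lower by the size rule, against 1937 and 1383 with TMM, and 5334 risen and 1862 fallen by edgeR, against 3134 and 3198.

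OGA-KO livers kept the conjugating enzymes close to their controls. Over both times edgeR called none of the 46 members and 0.0333% of all genes (4 genes, of which 2 were acinar markers). An unadjusted p under 0.05 was found for 12 members, 26.1% of them, against 13% of all genes. DESeq2 gave an adjusted p for 36 members and called none of those. At 14 days 2 of 45 members passed the size rule, where 0.839% of all genes did, and both had few counts. Ugt1a10 had 1.22 CPM in OGA-KO livers against 0.408 CPM in OGA control livers (33 and 10 counts). Sult2a7 had 1.70 against 0.694 CPM (46 and 17 counts). At 28 days no member passed it, where 2.57% of all genes did; the OGA-KO library of that day is the one with 207 CPM of acinar markers, whose part in these values was not tested. A fit that leaves out either OGA-KO library rests on the other alone for the OGA-KO effect. Its calls are listed only with the processing settings at the end and are not read as an OGA-KO effect.

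Within these narrow limits, some of the 11 families leaned one way, and SULT1 and GSTM are given as examples. Over all genes, 49.6% were lower in OGA-KO livers at 14 days and 49.2% at 28 days. All 4 SULT1 genes were higher in OGA-KO livers at both times, by log2 ratios of 0.03 to 0.33 at 14 days and 0.42 to 0.72 at 28 days. The larger ratios are those of the library with the acinar markers, whose part in them was not tested. Sult1a1 had 234 and 271 CPM in OGA-KO livers at 14 and 28 days against 214 and 183 CPM in OGA control livers. Sult1b1 had 29.8 and 34.9 CPM in OGA-KO livers against 24.4 and 26.1 CPM in OGA control livers (edgeR unadjusted p = 0.00702, adjusted p = 0.274). None of the 4 genes passed the edgeR threshold.

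GSTM genes leaned down: 5 of 7 were lower in OGA-KO livers at 14 days and 7 of 7 at 28 days, against 49.6% and 49.2% of all genes. Their log2 ratios were -0.38 to -0.14 at 28 days. These come from the library with the acinar markers, whose part in them was not tested. Gstm2 had 69.6 and 78.7 CPM in OGA-KO livers at 14 and 28 days against 84.5 and 102 CPM in OGA control livers, which gave the lowest unadjusted p of any member (0.00535, edgeR adjusted p = 0.264). Gstp1 was lower at both times as well, with 1600 and 1420 CPM in OGA-KO livers against 1830 and 1740 CPM in OGA control livers. UGT2 summed to 2690 and 2500 CPM in OGA-KO livers against 2780 and 3020 CPM in OGA control livers. Of the 44 members with at least 1 CPM in both OGA pairs, which share no library, 16 were higher and 15 lower at both times and 13 changed direction; the same direction was seen in 70.5% of these members and 62.5% of 11693 genes.

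The OGT-KO and OGA-KO effects on the members were compared in the same edgeR fit. The OGT-KO effect was lower than the OGA-KO effect for 33 of 46 members and higher for 4 (Gsta1, Gstm5, Gsto1 and Mgst3), where 22.7% of all genes were lower and 21.4% higher. The difference was -6.03 on the log2 scale for Sult2a8, -5.52 for Ugt3a2 and -4.62 for Ugt2b1, and 1.92 for Mgst3. For the 9 other members no difference was called, Sult1a1 (-0.61, adjusted p = 0.0602) and Ugt1a7c (1.59, adjusted p = 0.0717) among them.

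The 2 control pools at 28 days differed from each other in many of these genes. Between OGT control and OGA control, 14 of 45 members (31.1%) passed the size rule, 7 higher and 7 lower, where 10.4% of all genes did. Sult5a1 had 2.38 CPM in OGT control livers against 37.7 CPM in OGA control livers, and Gstt2 had 13 against 53.6 CPM. The 5 others lower in OGT control were UGT genes: Ugt1a5 (7.88 against 16.0 CPM), Ugt1a6b (19.9 against 44.1 CPM) and Ugt1a9 (12.0 against 38.8 CPM). Ugt2a3 (109 against 239 CPM) and Ugt2b38 (18.6 against 40.2 CPM) were the remaining ones. Higher in OGT control were Gsta1 (6.67 against 1.30 CPM), Sult1d1 (246 against 63.2 CPM), Gstm3 (404 against 132 CPM) and Gstm2 (270 against 102 CPM). So were Ugt2b35 (487 against 189 CPM), Ugt2b34 (825 against 393 CPM) and Sult2a7 (2.69 against 0.917 CPM). These pools differ in line, and line cannot be told apart here from any other difference between the 2 sets of mice.

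OGA control livers at 28 and 14 days differed little over all genes, of which 0.927% passed the size rule. No member of 43 passed it, which is near that share. The members' log2 ratios of 28 over 14 days lay between -0.23 and 0.50. Family sums differed little, UGT2 with 3020 CPM at 28 days and 2780 CPM at 14 days and MGST with 2990 and 3000 CPM.

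**Figure D4:**
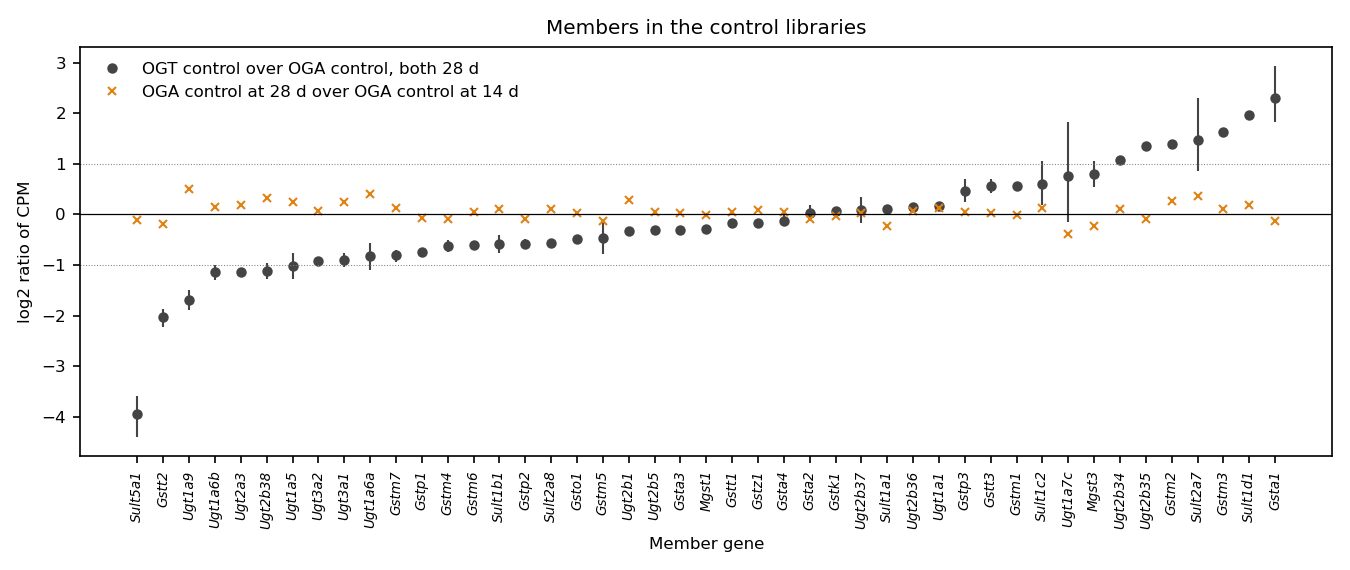
Log2 ratio of CPM for the 45 members with at least 1 CPM, ordered by the ratio of OGT control over OGA control at 28 days (circles, with 95% counting intervals); crosses give OGA control at 28 days over OGA control at 14 days, and dotted lines mark a 2-fold difference. The circles spread between -3.94 (Sult5a1) and 2.29 (Gsta1), while the crosses stay between -0.38 and 0.50.

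The genes around the conjugation reactions were read from a list of 60 genes with a row. In OGT-KO livers 32 of them fell and 12 rose by edgeR, and in OGA-KO livers none was called by edgeR (15 had an unadjusted p under 0.05). Over all genes tested, 26.6% fell and 26.1% rose in OGT-KO livers, and 13% had an unadjusted p under 0.05 in OGA-KO livers, so the share of the list that rose was not above the background. Other conjugating enzymes were the group with the most losses, 11 of 13 fallen and 1 risen. Inmt, which methylates indoleamines, had 3.83 CPM in OGT-KO livers against 131 CPM in OGT control livers, and Acsm1, a medium-chain acyl-CoA synthetase that feeds glycine conjugation, had 35.0 against 286 CPM. Baat, which joins bile acids to taurine, had 39.2 CPM in OGT-KO livers against 157 CPM in OGT control livers. As3mt, the arsenic methyltransferase, rose to 34.2 CPM against 24.3 CPM.

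Supply of the cosubstrates changed less evenly. For UDP-glucuronate, Ugp2, which makes UDP-glucose, fell to 232 CPM in OGT-KO livers against 667 CPM in OGT control livers, while Ugdh, which oxidises it to UDP-glucuronate, rose to 296 against 210 CPM and Gusb, the lysosomal beta-glucuronidase, to 52.1 against 28.6 CPM. For sulphate, 3 of 10 genes fell and 3 rose, shares near those over all genes (26.6% and 26.1%): the hepatocyte sulphate carrier Slc26a1 fell to 69.7 CPM in OGT-KO livers against 234 CPM in OGT control livers, and the PAPS synthases Papss1 and Papss2 were not called. For glutathione, 6 of 14 genes fell and 4 rose, the risen share being near the 26.1% over all genes. Gclm, the modifier subunit of the rate-limiting enzyme, fell to 140 CPM in OGT-KO livers against 261 CPM in OGT control livers, and the catalytic subunit Gclc had 643 against 918 CPM and was not called (edgeR adjusted p = 0.152).

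Steps of glutathione turnover moved in both directions. G6pdx, which supplies the NADPH that keeps glutathione reduced, had 46.6 CPM in OGT-KO livers against 7.62 CPM in OGT control livers, and Gsr, glutathione reductase, had 165 against 111 CPM. Ggt5 (8.27 against 1.60 CPM) and Dpep1 (6.66 against 1.30 CPM), which take glutathione conjugates apart outside the cell, rose too. Nat8, which acetylates the resulting cysteine conjugates, fell to 0.43 CPM in OGT-KO livers against 11.7 CPM in OGT control livers. Chac2 and Ggct, which degrade glutathione and the gamma-glutamyl dipeptides made from it, fell with log2 ratios of -1.65 and -1.10. The aminopeptidase Anpep and the 5-oxoprolinase Oplah fell with log2 ratios of -0.71 and -0.43.

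Transport genes moved in opposite directions. The uptake carriers Slco1a1 (4.08 CPM in OGT-KO livers against 120 CPM in OGT control livers) and Slco1b2 (81.6 against 741 CPM) fell, and so did Abcc6, Abcg2 and Slco1a4. The efflux pumps Abcc4 (75.5 against 9.01 CPM) and Abcc1 (13.3 against 2.86 CPM) rose. Abcc2, the pump that carries conjugates into bile, had 702 CPM in OGT-KO livers against 574 CPM in OGT control livers and was not called (edgeR adjusted p = 0.0536).

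Among 9 regulators known for these genes, 6 fell and none rose, where 26.6% of all genes fell and 26.1% rose. Nr1i3, which encodes the nuclear receptor CAR, had 52.4 CPM in OGT-KO livers against 129 CPM in OGT control livers, and its partner Rxra had 300 against 643 CPM. Hnf4a had 417 against 815 CPM, Ppara 58.3 against 111 CPM and Ahr 36.4 against 64.6 CPM. Nr1i2, the receptor PXR, had 51.8 CPM in OGT-KO livers against 51.9 CPM in OGT control livers, and Nfe2l2, which encodes NRF2, had 166 against 136 CPM; neither was called. Keap1, the NRF2 inhibitor, fell to 49.6 CPM in OGT-KO livers against 89.4 CPM in OGT control livers.

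**Figure D5:**
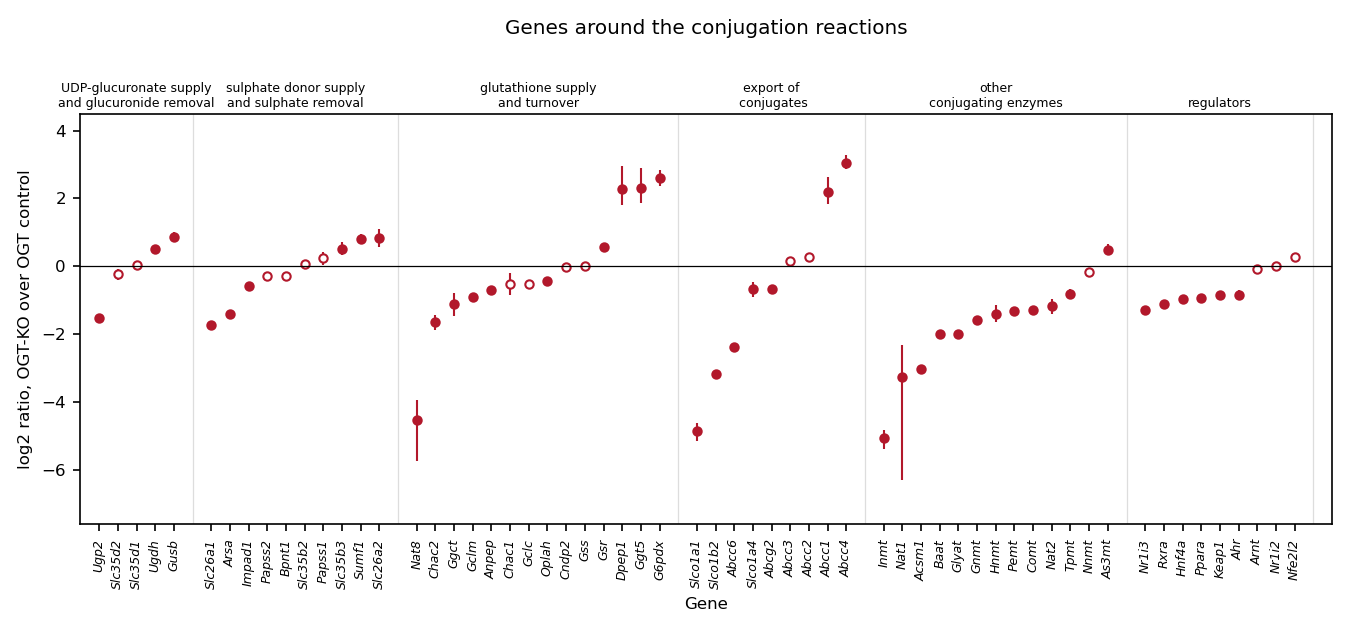
Log2 ratio of OGT-KO over OGT control (vertical axis, with 95% counting intervals) for 60 genes around the conjugation reactions, in 6 groups; filled points are past edgeR's threshold, open ones are not. Other conjugating enzymes and regulators lie mostly below 0, while the glutathione and export groups hold genes on both sides, from Nat8 (-4.53) and Slco1a1 (-4.85) up to Abcc4 (3.05).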

How the data were processed

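Messenger RNA of whole liver was sequenced from 6 pooled libraries. Per the labels, each pool held equal RNA of 3 mice and ran in 2 lanes. The authors deposited raw counts per Ensembl gene, 1 column per library, and a table of CPM, which was used only to check the divisors: it places 0.769% of the OGT-KO counts and 0.104% of the OGT control counts outside the rows. The submitters' processing notes name STAR, Subread, edgeR and build mm39, without versions. Every row held at least 28 counts over the 4 OGA libraries, so genes expressed mainly in the OGT libraries had less chance of a row, and 29 of 75 annotated symbols that match the member rule had none.

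Symbols came from a GENCODE M21 table for 12019 rows; Bpnt2 (as Impad1) and Oga (as Mgea5) were matched by synonym. edgeR 4.0.16 in R 4.3.3 gave TMM sizes, log2 ratios with a prior count of 2 and the quasi-likelihood test with terms for line, day, OGA-KO and OGT-KO (5 coefficients), after filterByExpr. Ratio intervals are exact Clopper-Pearson intervals of the conditional share. Reads carry no molecular identifiers, so intervals and floors of 3 counts cover counting error only. Shared sequence was measured as 50-base windows of transcripts, and exon lengths as the union of annotated exons (GRCm38). Alternatives were DESeq2 1.42.0, other scalings, filters, prior counts and fold limits, no line term, and each OGA library left out. The procedure was tested on simulated data.

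Named members were, per family, the 4 most abundant, the 3 highest and 3 lowest ratios of the OGT pair and any past the size rule in an OGA pair; the other members and the list around the reactions are given by counts and examples. The members and lists were chosen with earlier results of these data known. An item of the lists fixed for this work is not reported here.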

Additional observations from a re-analysis of the deposited data

Results flagged for a closer look

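For 5 of the 46 members the OGA-KO log2 ratio had opposite signs at 14 and 28 days, with a counting interval that left out 0 at each time. Ugt3a1 was at 0.17 at 14 days and -0.13 at 28 days, Gstp2 at 0.17 and -0.18, and Sult2a8 at 0.05 and -0.18. Gsta2 ran the other way, at -0.37 at 14 days and 0.34 at 28 days, and Gstt1 was at -0.06 and 0.16. For Gstt1 the interval at 14 days, -0.12 to 0 after rounding, left out 0 only narrowly. The share of all genes with such a change was not taken, so the count of members has no background. The ratios of 28 days come from the library with the acinar markers, whose part in them was not tested. The difference between the times was not tested, since each group has 1 library at each time and counting intervals do not cover differences between mice.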

How the results depend on the processing

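Each library is 1 pool, so no value here was checked against other mice; the 6 groups carry no shared replicate numbers. No paired analysis was possible because each group has 1 library and the labels give no pairing. In the OGT pair, the members higher by the size rule were 7 in place of 4 with library totals and 7 at a 1.5-fold limit. Over all genes, library totals gave 2832 higher in place of 1937. In the OGA pairs, the members past the rule at 14 days were 1 with a prior count of 10 and 0 at a minimum of 5 CPM, in place of 2. At 28 days they were 5 at a 1.5-fold limit, in place of 0. Counts over all genes were not taken at the 1.5-fold, prior count and minimum CPM settings. Without the line term, edgeR called 2 members risen, 21 fallen and 22 for the difference of the effects, in place of 6, 35 and 37. Of all 12026 genes that fit called 1616 risen and 1419 fallen, and 1395 higher and 1371 lower for the difference. All 23 members it then called for OGT-KO were among the 41 called with the term. Gstm3 turned to 0.11 (adjusted p = 0.926). With DESeq2, 4 members rose and 31 fell, and 34 of these calls were shared with edgeR's. Of all 12027 genes DESeq2 called 1207 risen and 1684 fallen. Leaving out 1 OGA library with no day term gave 6 to 7 risen and 32 to 35 fallen for OGT-KO, 34 to 40 for the difference, and 0 to 3 for OGA-KO, the 3 being Ugt2b35, Gstt2 and Sult1d1 without OGA-KO at 14 days. Without OGA-KO at 14 days, the OGA-KO effect rests on the library with the acinar markers alone. Those 3 calls are therefore not read as an effect of OGA-KO. Families at least 2-fold lower in OGT-KO were 9 of 11, and 5 without the most abundant member of each. The MGST sum then turned to 1.74, being Mgst3 alone. The causes were not tested beyond what these settings change.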
